A study of Homo sapiens with 8 samples.

Results

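The IL-1 family of cytokines and their antagonists was examined as 10 genes: the agonists IL1A, IL1B, IL36A, IL36B, IL36G, IL33 and IL18, the receptor antagonists IL1RN and IL36RN, and the anti-inflammatory cytokine IL37. They were taken by their NCBI gene identifiers from a table of 17131 genes, and 8 of the 10 held enough reads to be tested among 12434 genes. HaCaT, an established line of human keratinocytes of wild type genotype, was sequenced in 8 libraries from total RNA. Every library came from cells given M5, a mixture of oncostatin M, TNF-α, IL-1α, IL-17A and IL-22 that induces a psoriasis-like state, with each cytokine at 10 ng/mL for 24 h. The groups of 4 differed in OTS514, which blocks the kinase TOPK and was used, per the study's methods, at 10 nM from 12 h before M5. No culture without M5 was analysed here, so nothing below measures the response to M5 itself, and IL-1α protein, the product of one of the genes examined, was present in the medium of both groups. All libraries come from a single cell line, and nothing in the labels says that replicates were separate cultures, so that p-values measure the spread between these libraries, which may be technical.

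The labels of the groups conflict. Titles name 4 libraries M5_O5 and the others M5, while the treatment entered lists the TOPK inhibitor for the libraries titled M5 and no treatment for those titled M5_O5. Groups are therefore called by their titles, and "higher" means higher in the libraries titled M5_O5 than in those titled M5. No direction below can be read as an effect of OTS514 without knowing which label is right.

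IL-1 family cytokines are alarm signals of the epidermis. IL-1α and IL-1β bind IL1R1 with the shared partner chain IL1RAP, the IL-36 cytokines bind IL1RL2 with the same partner, IL-33 binds IL1RL1, and IL-18 binds IL18R1 with IL18RAP. The receptor antagonists occupy IL1R1 or IL1RL2 without signalling, and inherited loss of the IL-36 receptor antagonist causes a pustular form of psoriasis. IL-1β and IL-18 are made as precursors that caspase-1 cleaves within inflammasomes, whereas IL-1α, IL-33 and the IL-36 cytokines are cleaved by other proteases.

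Total estimated counts ranged from 16113015 to 16922693 per M5_O5 library and from 13708055 to 16847599 per M5 library, with M5 replicate 1 the lowest. Levels below are CPM (counts scaled to the library total) after TMM scaling, which corrects library size for composition, and levels between genes are compared only in the deposited TPM (which also divides by transcript length). A gene was called where edgeR's quasi-likelihood test gave a Benjamini-Hochberg adjusted p under 0.05 over all genes tested. By that rule 37.1% of the genes tested were called, 19.5% higher and 17.6% lower. Of the calls, 52.5% were higher under TMM, against 79.3% with library size alone and 81.1% on log2(TPM + 1), where the median log2 fold change of all genes was 0.13 and 0.12 in place of 0.01. The 10 keratinocyte markers were all tested and 6 of them fell, KRT14, TP63, KRT16, ITGA6, ITGB4 and PERP. Their summed level was 18836 to 21432 CPM in the M5_O5 libraries and 23121 to 26099 in the M5 libraries. Fibroblast markers summed to 33.0 to 36.6 CPM against 43.1 to 58.3, nearly all COL1A1, which fell by 0.58 on the log2 scale, while COL1A2 and COL3A1 were at 0 in all M5_O5 libraries and below 1 CPM in the others. Leukocyte markers summed to 79.9 to 98.7 CPM against 95 to 127, of which CD14 and CD68 made up nearly all and CD68 fell by 0.45, and PTPRC was at 0 in every library. Endothelial markers summed to at most 0.849 CPM and melanocyte markers between 1.45 and 2.62 CPM. The part of these shifts in the results below was not tested, and in bulk RNA fewer cells of a type and less RNA per cell cannot be told apart.

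Of the 8 members tested, IL33 and IL18 rose and the other 6 did not pass the test. The 2 called members, both higher by less than 2-fold, stand against the 37.1% of all genes called and the 19.5% called higher, so the share of members called was not above that of genes at large. Among all genes, 3.2% were called at 2-fold or more, 2.87% higher and 0.33% lower, and no member was. The median log2 fold change of the 8 members was 0.04, and that of all genes tested was 0.01. In CPM, a pair of members, IL33 and IL18, had all M5_O5 libraries above all M5 libraries. This held for 17.8% of all genes, and the groups were apart in either direction in 33.6%. IL36A and IL37 were too low to test.

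**Figure D1:**
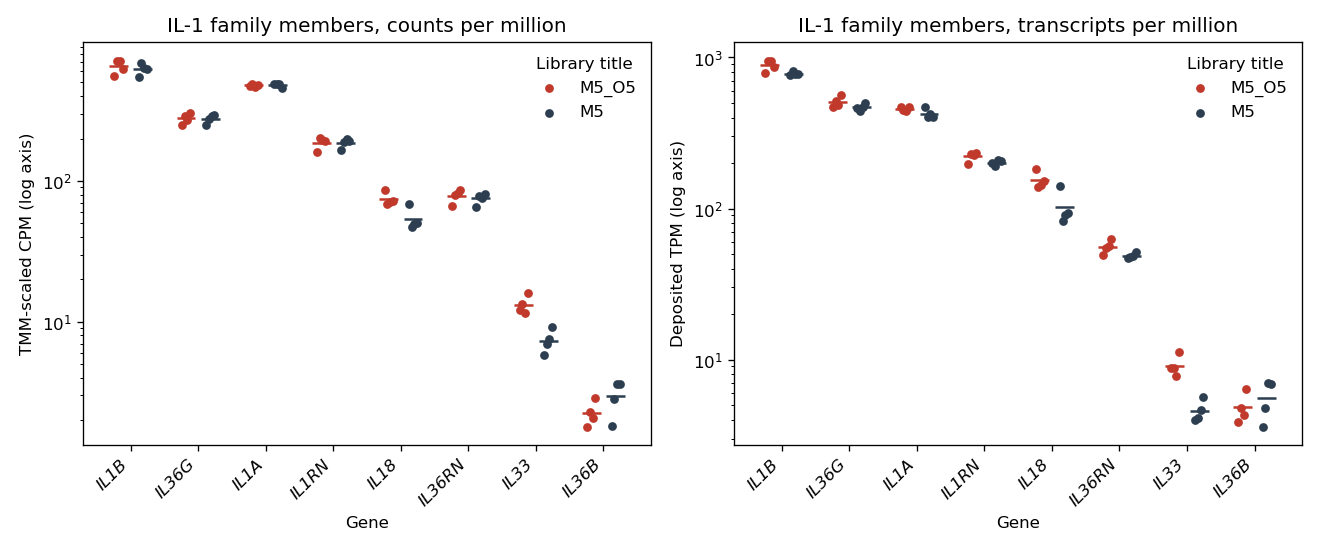
Level of the 8 tested members in each library on logarithmic axes, as TMM-scaled CPM at left and deposited TPM at right, with genes ordered by TPM. Each point is a library, red for M5_O5 and dark for M5, and lines are group means; only IL33 and IL18 have the CPM points of both groups apart, while IL1B was the highest member on both scales at 791 to 952 TPM in M5_O5 and 762 to 813 TPM in M5.

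In TPM, the order of the levels ran over more than 100-fold. IL1B led with 891 ± 76.5 TPM in M5_O5 and 781 ± 22.2 TPM in M5 (SD, n = 4 in each, as for all means below). IL36G followed with 510 ± 42.1 and 468 ± 23.0 TPM, and its range overlapped that of IL1A, at 458 ± 15.6 and 424 ± 31.8 TPM, in both groups. IL1RN, at 221 ± 16.8 and 201 ± 6.87 TPM, stood below both, and IL18 came next with 154 ± 20.4 and 102 ± 26.1 TPM. The agonists IL1B, IL36G and IL1A thus led the family, above the antagonists IL1RN and IL36RN. The lower members were IL36RN with 55.7 ± 5.43 and 48.8 ± 2.03 TPM, IL33 with 9.11 ± 1.46 and 4.59 ± 0.738 TPM, and IL36B with 4.82 ± 1.10 and 5.56 ± 1.67 TPM. IL33 and IL36B overlapped in the M5 libraries but not in the M5_O5 libraries. Of the summed TPM of the family, IL1B held 38.6% in M5_O5 and 38.4% in M5, IL36G 22.1% and 23.0%, and IL1A 19.9% and 20.8%. IL18 held 6.71% and 4.99%.

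IL33 encodes a nuclear alarmin that epithelial cells release when damaged and that acts on cells bearing IL1RL1. Its level was 12.1, 13.3, 11.6 and 16.0 CPM in M5_O5 replicates 1 to 4 and 5.84, 6.92, 7.5 and 9.1 CPM in M5 replicates 1 to 4. Every M5_O5 library lay above every M5 library. Its log2 fold change was 0.85 ± 0.14 (SE; 95% confidence interval 0.55 to 1.14, 1.80-fold), with an adjusted p of 0.000327 by edgeR's quasi-likelihood test. A two-sided exact permutation test over the libraries gave p = 0.0286, the smallest that 4 against 4 allows. The reads behind these values numbered 80 to 270 per library. IL33 is on chromosome 9, and the 250 bases ahead of one of its annotated transcription starts are shown since it moved most among the members (RefSeq, GRCh38.p14, chr9:6215557-6215806, plus strand, 5′ to 3′).

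IL33: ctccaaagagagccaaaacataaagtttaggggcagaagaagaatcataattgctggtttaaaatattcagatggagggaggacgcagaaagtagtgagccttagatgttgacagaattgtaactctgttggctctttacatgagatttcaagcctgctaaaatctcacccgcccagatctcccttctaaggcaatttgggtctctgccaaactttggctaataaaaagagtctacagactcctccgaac

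Most of the IL33 count was assigned to the transcript NM_001314045, with 90.6% ± 2.81 in M5_O5 and 84.6% ± 7.12 in M5. Its estimated counts were 183, 209, 184 and 243 in M5_O5 and 70.0, 96.8, 85.2 and 124 in M5, without overlap. This transcript rose by a log2 fold change of 0.98 ± 0.18 (adjusted p = 0.027 by edgeR over 37811 transcripts, of which 3.27% were called, 1.69% higher). That call was lost without M5_O5 replicates 1, 2, 3 or 4 or M5 replicates 2 or 3, with adjusted p from 0.0554 to 0.0967, and with no filter on low counts, whereas the call on the gene held in each of these settings. The receptor gene of IL-33, IL1RL1, had 1 to 17 reads per library and was not tested, at 0.287 to 1.01 CPM in M5_O5 and 0.073 to 0.327 CPM in M5.

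IL18 encodes a cytokine held in keratinocytes as a precursor and known for raising interferon-γ output by lymphocytes. The level was 86.7, 68.9, 71.1 and 72.4 CPM in M5_O5 replicates 1 to 4 against 68.0, 46.8, 49.7 and 49.9 CPM in M5 replicates 1 to 4. Replicate 1 was the highest of each group, and M5 replicate 1 came close to the lowest M5_O5 library without reaching it. This was a log2 fold change of 0.48 ± 0.11 (95% confidence interval 0.26 to 0.71, 1.40-fold, adjusted p = 0.00279 by edgeR, exact permutation p = 0.0286). Without M5 replicate 1 the log2 fold change was 0.62. In the deposited TPM the IL18 groups overlapped, with M5 replicate 1 at 141 TPM and M5_O5 replicate 2 at 138 TPM.

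IL18 was also where the share of an alternative transcript differed. In their coding part, NM_001562 and NM_001243211 differ in exon 3 of 6, an exon of 12 bases or 4 codons on chromosome 11 that the shorter form skips (GRCh38, chr11:112153592-112153603, minus strand). The coding lengths are 579 and 567 bases, so the reading frame is kept. Outside the coding part, the annotated full form holds 45 further bases, 43 of them ahead of it and 2 after it. Both forms are shown from the GENCODE v29 transcript, with exon 3 in capitals between 24 coding bases on each side, to show where the encoded proteins differ.

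IL18 with exon 3: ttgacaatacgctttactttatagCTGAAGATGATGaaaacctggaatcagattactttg
IL18 without exon 3: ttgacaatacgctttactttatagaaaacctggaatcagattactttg

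The form without exon 3 took 8.02%, 7.28%, 8.20% and 7.43% of the IL18 counts in the M5_O5 libraries and 4.53%, 3.79%, 4.25% and 3.59% in the M5 libraries. The groups did not overlap, which was so for 5.33% of the 33624 transcripts tested in genes with 2 or more tested transcripts. Its estimated counts were 120, 87.3, 98.4 and 90.5 against 42.2, 27.1, 32.1 and 28.8, a log2 fold change of 1.44 ± 0.26 (adjusted p = 0.0276 by edgeR). The full form did not pass, at 0.44 ± 0.13 (adjusted p = 0.139), and passed without M5 replicate 1, at 0.57 (adjusted p = 0.0242). The call on the short form was lost without any of the M5_O5 replicates or M5 replicates 2, 3 or 4, with log2 fold changes of 1.33 to 1.5 and adjusted p of 0.0681 to 0.0942. It was also lost with no filter on low counts (adjusted p = 0.0749). These counts are estimates, since reads from bases that the forms share were divided between them, and whether the shift came from exon 3 or from the differing bases outside the coding part was not tested.

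IL1B encodes IL-1β, the inflammasome-processed agonist of the IL-1 receptor. It was at 555, 714, 708 and 622 CPM in M5_O5 and at 550, 683, 629 and 619 CPM in M5. The groups overlapped, and replicate 1 was the lowest of each. The IL1B log2 fold change was 0.07 ± 0.08 (95% confidence interval -0.11 to 0.25, adjusted p = 0.565 by edgeR), so that a difference above 1.19-fold in favour of M5_O5 lay outside the interval. Scaling mattered here: the log2 fold change was 0.23 (adjusted p = 0.0181) with loess offsets that remove each library's trend on expression level and 0.19 (adjusted p = 0.0434) in limma on log2(TPM + 1), where all genes shifted upward by a median of 0.12.

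IL1A encodes IL-1α, an agonist active without inflammasome cleavage and a component of M5. It was at 470, 485, 468 and 481 CPM in M5_O5 and 485, 485, 487 and 460 CPM in M5. The groups overlapped throughout, with M5 replicate 4 the lowest library of all. The log2 fold change was -0.01 ± 0.05 (95% confidence interval -0.12 to 0.10, adjusted p = 0.89 by edgeR). Its sign turned with the scaling, to 0.11 with library size alone and to 0.14 (adjusted p = 0.042) with loess offsets. The 250 bases ahead of the starts of both IL-1 genes are shown, as these genes make the agonists of IL1R1 and neither passed the test (RefSeq, GRCh38.p14, minus strand; IL1A chr2:112784494-112784743 and IL1B chr2:112836780-112837029). Capitals mark letters of the AP-1 motif TGANTCA in IL1A and of the STAT motif TTCNNNGAA in IL1B, searched on both strands.

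IL1A: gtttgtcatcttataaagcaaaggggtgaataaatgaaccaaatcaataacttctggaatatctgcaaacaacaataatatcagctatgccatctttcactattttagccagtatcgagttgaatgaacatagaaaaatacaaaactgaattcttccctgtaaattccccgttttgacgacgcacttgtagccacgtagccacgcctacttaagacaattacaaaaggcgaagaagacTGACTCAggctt
IL1B: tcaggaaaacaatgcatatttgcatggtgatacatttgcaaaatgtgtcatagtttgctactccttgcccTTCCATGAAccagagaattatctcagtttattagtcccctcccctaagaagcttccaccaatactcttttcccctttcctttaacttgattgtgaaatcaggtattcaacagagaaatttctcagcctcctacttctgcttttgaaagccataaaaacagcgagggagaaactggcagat

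Windows of 300 bases, from 250 before to 50 after a start, were available for 8 of the 10 members at 14 starts. TGANTCA was in 3 of the 14 windows, those of IL1A at 2 nearby starts and of IL1RN, and in 7.71% of 35116 human promoters of the same length. Promoters on chromosome 8 were left out of that set. TTCNNNGAA was in 2 windows, of IL1B and of IL33 after the start, and in 7.66% of these promoters. A kappaB pattern, GGG and CC with 5 bases of any kind between, was in 7 windows, including 4 matches in an IL1RN window, and in 58.7% of these promoters. These matches describe letters only.

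IL1RN encodes the IL-1 receptor antagonist, which competes with IL-1α and IL-1β for IL1R1. Its level was 160, 201, 195 and 193 CPM in M5_O5 and 167, 189, 197 and 191 CPM in M5, and the groups overlapped. The log2 fold change was 0.01 ± 0.07 (95% confidence interval -0.15 to 0.17, adjusted p = 0.944 by edgeR). Of its counts, the transcript NM_000577 took 83.4% ± 2.04 in M5_O5 and 82.6% ± 1.02 in M5. The balance of antagonist to agonists overlapped between the groups: the TPM of IL1RN was 15.5% to 17.3% of the summed TPM of IL1A and IL1B in M5_O5 and 15.8% to 17.5% in M5. IL1B stood at 1.68 to 2.16 times the TPM of IL1A in M5_O5 and at 1.62 to 2.01 times in M5.

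IL36G encodes IL-36γ, an epidermal agonist of the IL-36 receptor that is abundant in psoriatic skin. Its level was 248, 290, 272 and 303 CPM in M5_O5 and 250, 276, 287 and 296 CPM in M5. The group means were 278 CPM in both, the libraries interleaved, and the log2 fold change was 0.00 ± 0.07 (95% confidence interval -0.15 to 0.15, adjusted p = 0.966 by edgeR). Its transcripts were compared as well. NM_019618, the main form, has 5 exons and a coding length of 507 bases, and NM_001278568 skips exon 3, a coding exon of 105 bases or 35 codons on chromosome 2, leaving 402 coding bases in the same frame (GRCh38, chr2:112979221-112979325, plus strand). Outside the coding part, the annotated forms also differ, by 111 bases after it that are in the main form alone and 10 bases ahead of it that are in the short form alone. The sequences follow in the same layout as for IL18, with exon 3 in capitals.

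IL36G with exon 3: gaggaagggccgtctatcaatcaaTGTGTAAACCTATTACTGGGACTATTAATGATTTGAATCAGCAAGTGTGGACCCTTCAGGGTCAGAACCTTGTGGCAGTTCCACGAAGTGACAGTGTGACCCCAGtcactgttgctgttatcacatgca
IL36G without exon 3: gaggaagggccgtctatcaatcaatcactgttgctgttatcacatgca

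The form without exon 3 took 0.762%, 1.05%, 0.645% and 0.936% of the IL36G counts in M5_O5 and 2.75%, 3.33%, 2.79% and 2.92% in M5. The highest M5_O5 library was below the lowest M5 library. Estimated counts were 32.5, 53.1, 29.6 and 47.8 against 94.3, 141, 122 and 139, and the log2 fold change was -1.74 ± 0.24 (95% confidence interval -2.30 to -1.17, adjusted p = 0.0116 by edgeR), where 1.57% of all transcripts were called lower. The main form did not pass, at 0.07 ± 0.08 (adjusted p = 0.844). Without M5 replicate 4 the log2 fold change of the short form was -1.71 and its adjusted p 0.0501, just past the threshold. As for IL18, the share of the form is not a measure of exon 3 alone.

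**Figure D2:**
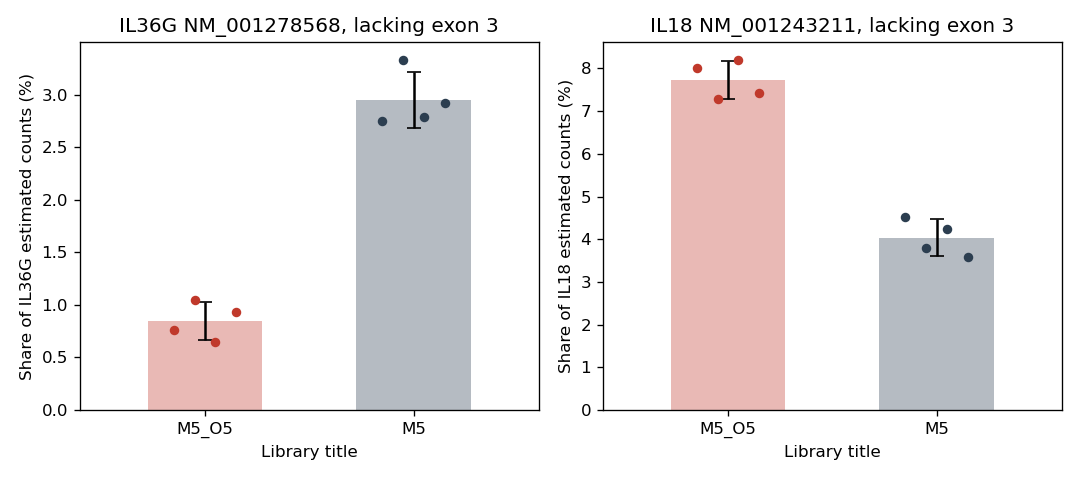
Share of the gene's estimated counts assigned to the annotated transcript without exon 3, in percent from 0, for IL36G at left and IL18 at right. Points are libraries, bars are means and error bars are SD (n = 4); the IL36G form was at 0.849% ± 0.181 in M5_O5 and 2.95% ± 0.264 in M5, and the IL18 form at 7.73% ± 0.448 and 4.04% ± 0.428.

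Across the family, 32 transcripts were listed, 22 had a mean of 10 or more counts and were tested, and the 3 described above for IL33, IL18 and IL36G were called, against 3.27% of all transcripts tested. All 3 calls were lost in a fit with a replicate block (adjusted p = 0.0576, 0.0813 and 0.0566 by edgeR). In IL36G and IL18 the shorter forms moved in opposite directions, lower in M5_O5 for IL36G and higher for IL18.

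IL36RN encodes the antagonist of the IL-36 receptor. It was at 66.4, 79.6, 81.4 and 86.1 CPM in M5_O5 and at 65.6, 77.8, 76.2 and 80.4 CPM in M5. Replicate 1 was again the lowest of each group, and the groups overlapped. The IL36RN log2 fold change was 0.06 ± 0.08 (95% confidence interval -0.11 to 0.24, adjusted p = 0.575 by edgeR). Its TPM was 10.4% to 11.5% of the summed TPM of the 3 IL-36 agonists in M5_O5 and 10.1% to 10.7% in M5.

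IL36B encodes IL-36β, and was scarce at 25 to 58 reads per library. Levels were 1.80, 2.30, 2.07 and 2.85 CPM in M5_O5 and 1.82, 2.81, 3.62 and 3.61 CPM in M5. The groups overlapped through M5 replicate 1, which lay near the bottom of the M5_O5 range. The log2 fold change of -0.41 ± 0.22 did not pass (95% confidence interval -0.87 to 0.06, adjusted p = 0.16 by edgeR). It passed without M5 replicate 1, at -0.57 (adjusted p = 0.0213), and with loess offsets, at -0.64 (adjusted p = 0.047). IL36A, the gene of IL-36α, had 0 to 3 reads per library, and IL37, whose product dampens inflammation, had 0 to 4, so that neither could be compared at this depth.

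**Figure D3:**
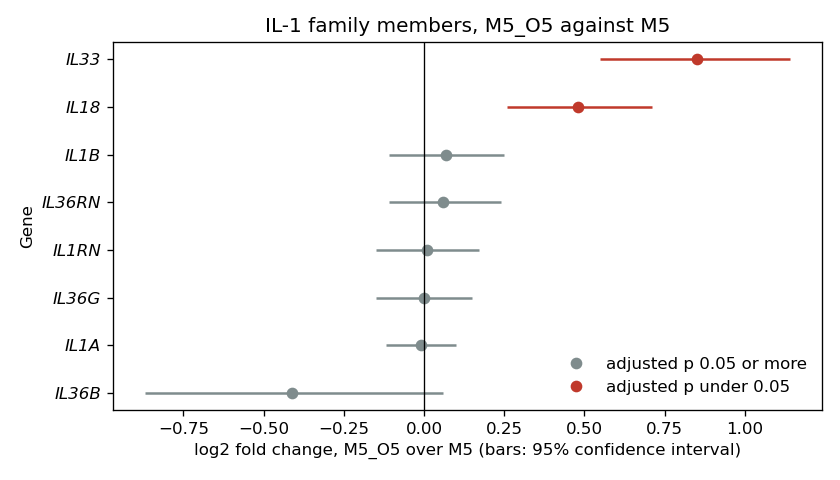
Log2 fold change of the 8 tested members, M5_O5 over M5, with 95% confidence intervals from edgeR. Red marks an adjusted p under 0.05: IL33 at 0.85 and IL18 at 0.48; the intervals of the other 6 members cross 0, that of IL36B being the widest, from -0.87 to 0.06.

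For the 2 tested members with the highest CPM, the most alike genes over the 8 libraries were sought by Pearson's r of log2(CPM + 1) among 11967 genes. They were SLC44A2 (r = 0.986), KHDRBS3 (0.982) and RPL7A (0.980) for IL1B, and CCNH (0.926), RFC1 (0.910) and GRTP1 (0.882) for IL1A. The points share library depth and scaling, and the values describe these 8 libraries alone.

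The other genes of the pathway were taken from a list of 49 genes, of which 43 were tested. They were receptors, regulators, targets and 1 further cytokine of the family, IL1F10. IL1F10 did not pass, at a log2 fold change of 0.22 ± 0.22 (adjusted p = 0.471 by edgeR). A total of 19 were called, 7 higher and 12 lower, against 37.1% of all genes called, 19.5% higher and 17.6% lower. The median log2 fold change over the list was -0.09. In 12 of the 19 the call held in every setting tried in which the gene was tested.

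Of 6 receptor genes listed, 4 were tested and all 4 were called, against 37.1% of all genes; IL1RL1 and IL18RAP were too low. IL1RL2, the receptor of the IL-36 cytokines, was at 1.16, 1.32, 0.652 and 1.25 CPM in M5_O5 and 0.292, 0.196, 0.658 and 0.187 CPM in M5. M5_O5 replicate 3 and M5 replicate 3 met, and otherwise the groups were apart. The log2 fold change was 1.70 ± 0.39 (adjusted p = 0.00352 by edgeR) on 3 to 23 reads per library, and was 2.26 without M5 replicate 3. IL18R1, the binding chain for IL-18, was at 1.45, 1.32, 1.30 and 1.66 CPM in M5_O5 and 1.24, 0.392, 0.197 and 0.436 CPM in M5. M5 replicate 1 stood far above the other M5 libraries and just under the lowest M5_O5 library. Its log2 fold change was 1.37 ± 0.37 (adjusted p = 0.00917), and 2.04 without M5 replicate 1. On log2(TPM + 1), which compresses genes this low, the log2 fold changes were 0.50 for IL1RL2 and 0.43 for IL18R1. These were the only genes of the list called at 2-fold or more. IL18RAP, the partner chain of IL18R1, had at most 1 read per library.

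IL1R1, the signalling receptor of IL-1α and IL-1β, was at 35.2 to 39.1 CPM in M5_O5 and 25.5 to 30.8 CPM in M5, with a log2 fold change of 0.44 ± 0.07 (adjusted p = 0.000407 by edgeR). IL1R2, a decoy that binds IL-1 without signalling, was at 28.5, 26.5, 23.6 and 21.6 CPM against 15.5, 13.9, 14.6 and 13.1 CPM, a log2 fold change of 0.81 ± 0.10 (adjusted p = 2.5e-05). Both the receptor and its decoy were higher in every M5_O5 library than in any M5 library, which held for 17.8% of all genes. SIGIRR, an inhibitory receptor of the family, went the other way, at 29.9 to 32.6 CPM against 36.5 to 45.4 CPM (log2 fold change -0.44 ± 0.07, adjusted p = 0.000374). IL1RAP, the shared partner chain, fell by 0.20 on the log2 scale (adjusted p = 0.0333), a call lost without M5_O5 replicates 2, 3 or 4 or M5 replicates 1, 3 or 4 (adjusted p 0.054 to 0.0922), and with library size alone, loess offsets or limma. IL18BP, the secreted inhibitor of IL-18, did not pass, at -0.16 ± 0.11 (adjusted p = 0.268).

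Among the listed adapters, kinases and regulators acting between the receptors and NF-κB, 3 of 10 tested fell and none rose. Of all genes, 37.1% were called and 17.6% were called lower. The calls on TRAF6 and MAP3K7 were lost in some settings. IRAK2, a kinase-like adapter of the receptor complex, was at 57.4, 67.3, 64.5 and 63.9 CPM in M5_O5 and 84.5, 88.0, 90.9 and 93.3 CPM in M5, and fell by 0.50 on the log2 scale (SE 0.06, adjusted p = 3.8e-05 by edgeR). TRAF6, the ubiquitin ligase downstream, fell by 0.34 (adjusted p = 0.00309), and not under limma on log2(TPM + 1), at -0.15 (adjusted p = 0.28). MAP3K7, the kinase TAK1, fell by 0.16 (adjusted p = 0.0369), a call lost with library size alone, with loess offsets, with no filter on low counts and without any single library other than M5_O5 replicate 4 (adjusted p 0.0562 to 0.0836 without a library), and turned to 0.011 under limma. MYD88, the central adapter, had -0.23 ± 0.09 and an adjusted p of 0.0505.

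Of the inflammasome genes, 8 of 11 were tested. CASP1, which cleaves the IL-1β and IL-18 precursors, rose, with 39.0 to 44.8 CPM in M5_O5 against 29.4 to 31.2 CPM in M5 (log2 fold change 0.48 ± 0.07, adjusted p = 0.000117 by edgeR). CASP5, an inflammatory caspase of the same gene cluster, rose by 0.81 ± 0.23 (adjusted p = 0.0112) with 1.38 to 1.6 CPM against 0.592 to 1.06 CPM. It rests on 9 to 27 reads per library, and did not pass with loess offsets, at 0.56 (adjusted p = 0.0715). CASP4, the other caspase in this group, did not pass, at -0.04 ± 0.06 (adjusted p = 0.617 by edgeR). It was at 192 to 222 CPM in M5_O5 and 201 to 226 CPM in M5, far above CASP5. NLRP1, the main inflammasome sensor of human keratinocytes, fell by 0.47 (adjusted p = 0.00256), at 55.7 to 74.4 CPM against 73.0 to 99.9 CPM, with groups that overlapped. The adapter PYCARD and the pore former GSDMD did not pass, at -0.09 ± 0.08 and 0.10 ± 0.09.

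Genes of processing, release and feedback were all tested, 17 in number. Called were 3 of 8 proteases and inhibitors, 1 of 4 release genes and 3 of 5 feedback genes, against 37.1% of all genes. The 3 feedback genes called were all lower, as were 17.6% of all genes. In the proteases and their inhibitors, CASP8, an initiator caspase of cell death, rose by 0.33 ± 0.09, CAPN2, a subunit of the calpain that can cleave the IL-1α precursor, fell by 0.31, and SERPINB1, an inhibitor of neutrophil proteases, fell by 0.18 (adjusted p = 0.00901, 0.00053 and 0.0237 by edgeR). CTSS, the gene of cathepsin S, which can activate IL-36γ, did not pass, at 0.16 ± 0.07 (adjusted p = 0.0675). In the release group, TMED10, a channel for secretion of cytokines without a signal peptide, fell by 0.16 (adjusted p = 0.0184). Of the inducible feedback genes, NFKBIA was at 216, 210, 218 and 214 CPM in M5_O5 and 258, 284, 265 and 263 CPM in M5. It fell by 0.32 on the log2 scale (adjusted p = 0.000281 by edgeR). N4BP1, a suppressor of NF-κB signalling, fell by 0.32 (adjusted p = 0.000414) and TNFAIP3, the gene of A20, by 0.18 (adjusted p = 0.03). ZC3H12A and NFKBIZ did not pass, at -0.13 ± 0.07 and -0.01 ± 0.05. The calls on SERPINB1, TMED10 and TNFAIP3 were lost with library size alone, with loess offsets and in limma, and without single libraries: M5_O5 replicates 2 or 3 or M5 replicates 3 or 4 for SERPINB1 (adjusted p 0.055 to 0.0753), M5_O5 replicate 3 or M5 replicate 4 for TMED10 (0.0542 to 0.0599), and any library other than M5_O5 replicate 4 and M5 replicate 1 for TNFAIP3 (0.0544 to 0.0845).

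**Figure D4:**
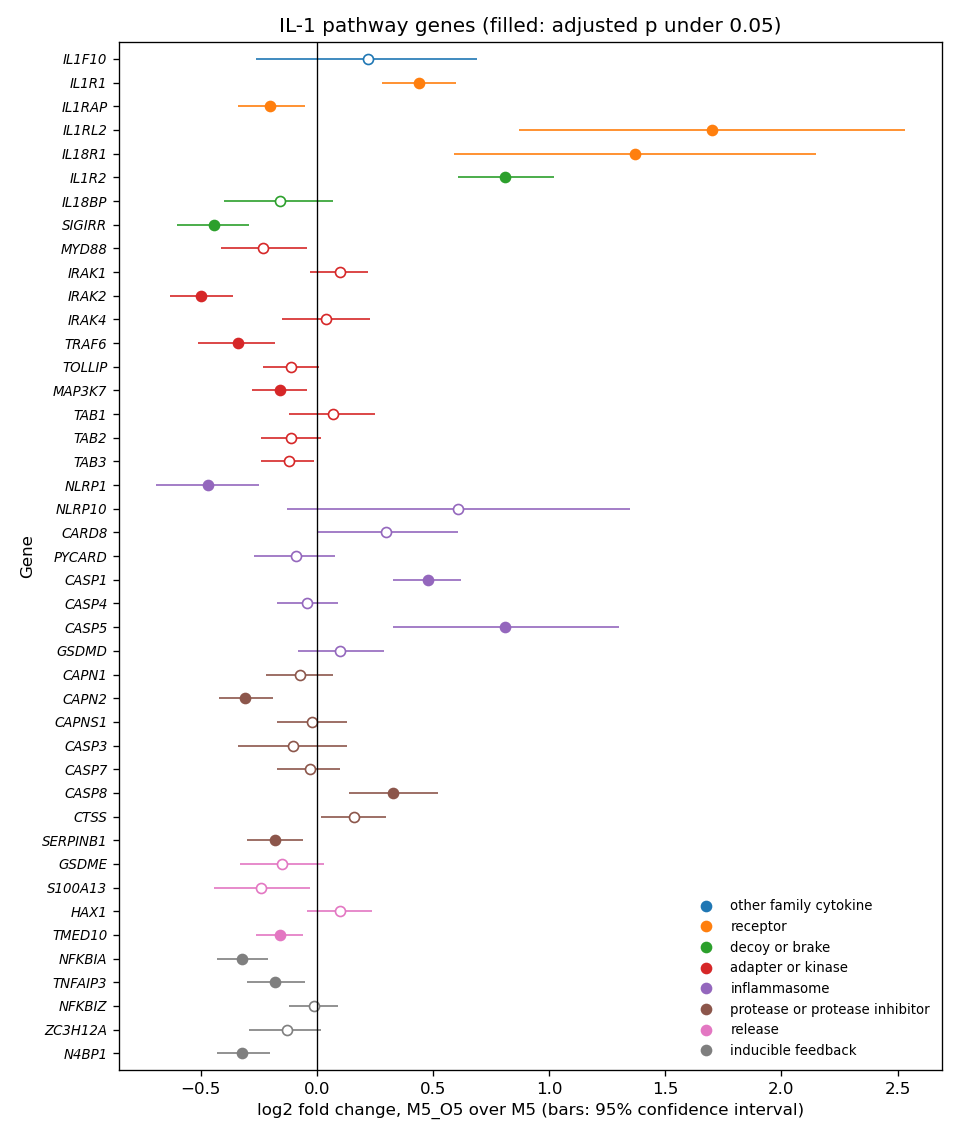
Log2 fold change, M5_O5 over M5, of the 43 tested genes of the pathway list with 95% confidence intervals, coloured by role, with filled points for an adjusted p under 0.05. The receptors IL1RL2 (1.70) and IL18R1 (1.37) lie farthest right with wide intervals. The called adapters and kinases, 3 of 10 tested, and the called feedback genes, 3 of 5 tested, lie left of 0. Of all genes, 37.1% were called and 17.6% were called lower.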

How the data were processed

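Total RNA of 8 HaCaT libraries was sequenced. The authors filtered and mapped the reads with HISAT2 and counted them with StringTie, per the study's methods; the submitters' processing notes also list HISAT2 2.1.0, Bowtie2 2.2.5 and RSEM 1.2.8, and a mouse build that does not match the human line, so no coordinate of the files was used. The deposited table holds an estimated count, not normalized, per RefSeq transcript, with 86639 transcript rows, of which 53.8% of values are fractional. The deposited TPM values scale length-corrected counts to a fixed sum per library. The deposited FPKM values and the authors' group means were not used. Whether counting used strand is not given in the sources used here.

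Counts were summed to 17131 genes by Entrez identifier, with RefSeq symbols for 17072, then rounded, filtered with filterByExpr to 12434 genes, scaled by TMM and tested with edgeR 4.0.16 (R 4.3.3), M5_O5 against M5 by title, without covariates. The same was done for 82754 transcript accessions, of which 37811 were tested. Standard errors and intervals were derived with the F statistic of each fit. Scripts were tested on simulated counts. Replicates differed by more than sampling noise (chi-square per gene 2.03 to 16.5), so all 8 were kept as separate libraries. This does not show that they were separate cultures. Total counts of 13708055 to 16922693 set the precision, and intervals cover the spread between these libraries.

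Alternatives were RLE and library size scaling, loess offsets, 2 other filters (1 count in any library, or 10 in every library), DESeq2 1.42.0, limma 3.58.1 on log2(TPM + 1) and log2(TPM + 0.1), a replicate block, and 8 fits that each omit a library. The members, the pathway list, written from general knowledge, and the marker lists were chosen with earlier results of these data known. Pathway genes were named where called, and members' transcripts where called, with their gene's main form. Named besides, after their values were seen, were IL1F10, IL1RL1, IL18RAP, IL18BP, MYD88, CASP4, PYCARD, GSDMD, CTSS, ZC3H12A, NFKBIZ and the main transcript of IL1RN. Exon structures and sequences came from GENCODE v29 (GRCh38), matched by RefSeq accession, and promoters from RefSeq (GRCh38.p14).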

Additional observations from a re-analysis of the deposited data

Results flagged for a closer look

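Among 66 sets of 4 libraries checked for a library far from the others, 4 were marked by Dixon's criterion on the gap to the nearest library, where chance marks about 1 in 20, or 3.3. In M5 replicate 1, IL18 was at 68.0 CPM against 46.8 to 49.9 CPM in the other M5 libraries, and IL1R1 at 30.8 CPM against 25.5 to 26.0 CPM. CAPN2 was at 516 CPM in the same library against 560 to 567 CPM. These 3 values lay on the side of the M5_O5 libraries, and M5 replicate 1 also had the lowest total count, 13708055. IL1A was at 460 CPM in M5 replicate 4 against 485 to 487 CPM in the others.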

How the results depend on the processing

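IL33 and IL18 were called under all alternatives tried, with log2 fold changes of 0.70 to 0.97 and 0.41 to 0.62. The number of members called went from 2 to 5 with loess offsets, which added IL1A, IL1B and IL36B, and was 2 to 3 without single libraries. Pathway genes called numbered 15 to 23 without single libraries and 15 to 22 under the other alternatives, against 19. Genes called at 2-fold or more fell from 398 to 152 in limma on log2(TPM + 1), and were 380 to 511 without single libraries; all genes called were 3578 to 5376. Transcripts called went from 1235 to 676 with no filter, 1969 with 10 counts in every library, and 380 to 1492 without single libraries. Fewer or more features were tested under these filters, and other causes were not tested.

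Log2 fold changes close to 0 turned sign. IL1A went from -0.01 to 0.11 with library size alone, 0.14 with loess offsets, and 0.11 in both limma fits. IL1RN was -0.006 with RLE and -0.005 in DESeq2, and -0.04 to 0.077 without single libraries. IL36G was -0.009 in both, and -0.043 to 0.056 without single libraries. MAP3K7 was 0.011 and 0.012 in the limma fits.

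Replicate numbers pair no samples by the labels, and same-numbered libraries had deviations correlated at 0.288, 0.191, 0.0425 and -0.00495; M5_O5 replicate 3 was closer to M5 replicate 2 (0.362). With a replicate block, 5255 genes were called in place of 4613, members stayed at 2, and transcripts fell to 271, without those of IL36G, IL18 and IL33 (adjusted p 0.0566, 0.0813 and 0.0576); 22 pathway genes were called, and none of the 19 called without the block was lost. IL1RL2, IL18R1 and CASP5 rest on at most 28 reads per library, and members under 5 reads could not be compared.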

Other observations

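Replicate 1 of both groups was the lowest of its group in IL1B, IL36G, IL1RN and IL36RN and the highest in IL18. In M5_O5 replicate 1 these were 555, 248, 160 and 66.4 CPM, and in M5 replicate 1 they were 550, 250, 167 and 65.6 CPM, while IL18 was at 86.7 and 68.0 CPM. For these 4 genes the difference between replicate 1 and the other libraries of a group exceeded the difference between the group means.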
